A study of Mus musculus with 6 samples.

Results

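Keratin genes were followed in bulge stem cells (SCs) of the mouse hair follicle (HF) with and without integrin-linked kinase (ILK), an adaptor that couples integrin adhesions to actin. Members were all annotated keratin genes of the count table whose symbol is Krt followed by digits only, with pseudogenes and keratin-associated proteins left out. These were 49 of the 43274 genes in the table, 26 of type I and 23 of type II. CD34+/α6 integrin-high cells of mouse skin had been isolated by FACS at postnatal day 21, and 3 control and 3 ILK-K5 libraries were sequenced. Control mice carried 1 floxed and 1 unfloxed Ilk allele, ILK-K5 mice carried 2 floxed alleles, and both carried K5-Cre, a recombinase driven by the promoter of keratin 5, a member of the family, which is active in basal cells of the epidermis and HF. Cre was thus present in control epidermis too, and 1 Ilk allele was a target there. The labels do not say whether the libraries of a genotype came from separate animals, so p-values measure the spread between these libraries.

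Keratins are the intermediate filament proteins of epithelia. A type I chain pairs with a type II chain, and the pair assembles into filaments that attach to desmosomes and hemidesmosomes and give the cell its mechanical strength. Which pair a cell makes marks where it stands in the skin: Krt5 and Krt14 in the basal layer, with Krt15 in basal cells and most strongly in the bulge, Krt1 and Krt10 above the basal layer, Krt6 chains with Krt16 and Krt17 in the companion layer and in wounded or hyperproliferative epidermis, Krt25 to Krt28 with Krt71 to Krt74 in the inner root sheath, and the hard keratins in the hair shaft. Almost all type I genes lie together in 1 cluster and the type II genes in another. On GRCm38, 25 members lay on chromosome 11 and 24 on chromosome 15, the latter including Krt18, a type I gene at the edge of the type II cluster.

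Neighbouring keratin genes are copies of each other, and how alike they are bears on how far their reads can be told apart. The stretches shown are coding sequence of 78 bases from GENCODE M21 transcripts on GRCm38, each within 1 exon and in coding orientation, which is the minus strand, and each ends at the conserved end of the rod domain. They are given for type I members on which the results turn and their nearest relatives. Capitals mark bases that differ from the first sequence, that of Krt17.
Krt17 (chr11:100257441-100257518, exon 6): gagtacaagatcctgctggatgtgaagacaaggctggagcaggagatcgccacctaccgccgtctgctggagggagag
Krt42 (chr11:100264486-100264563, exon 6): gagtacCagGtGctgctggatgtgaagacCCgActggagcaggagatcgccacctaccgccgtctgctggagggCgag
Krt16 (chr11:100246618-100246695, exon 6): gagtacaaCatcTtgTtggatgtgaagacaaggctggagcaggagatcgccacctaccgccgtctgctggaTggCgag
Krt14 (chr11:100204116-100204193, exon 6): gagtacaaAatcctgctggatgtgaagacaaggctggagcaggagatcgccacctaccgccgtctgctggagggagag
Krt15 (chr11:100132999-100133076, exon 6): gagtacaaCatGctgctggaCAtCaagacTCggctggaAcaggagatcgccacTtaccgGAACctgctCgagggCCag

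From Krt17, the stretch of Krt14 differed at 1 base, that of Krt16 at 5, that of Krt42 at 7 and that of Krt15 at 16 of the 78. Over whole transcripts, the share of windows of 50 bases also found in transcripts of another gene was 0.234% for Krt42, 0.640% for Krt15, 3.99% for Krt17 and 13.9% for Krt14. It was 37.6% for Krt16, most of it shared with the gene model Gm11597, and 57.2% for Krt6a and 50.1% for Krt6b, most of it shared between them. The program that counted the reads is not given in the sources used here, so the counts of Krt16, Krt6a and Krt6b are uncertain where reads could go to either copy, whereas this concerns little of Krt42, Krt15 or Krt17. The same uncertainty holds for the low counts of Krt8 (29.7%) and of some hair shaft members, among them Krt86 (43.3%) and Krt81 (37.7%).

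Libraries held 8228019 to 11969072 reads on genes. Keratin members took 0.614, 0.728 and 2.23% of them in the controls (libraries 1 to 3 in order, here and throughout) and 0.487, 1.11 and 1.05% in ILK-K5, so that control library 3 stood apart within its group, also by its share of mitochondrial reads (11.5% against 23.6 and 27.6%). Ilk itself had 11, 11 and 53 reads in the controls and 13, 40 and 30 in ILK-K5, with a log2 fold change of 0.30 (adjusted p = 0.933), and so did not check the genotype. Of 7 bulge SC markers, Cd34 fell, from 28.3, 13.3 and 27.6 to 4.16, 7.88 and 6.10 FPKM (log2 fold change -1.90, adjusted p = 0.0239), and the other 6, Itga6, Sox9, Lhx2, Nfatc1, Tbx1 and Lgr5, were detected in every library and not called. All 10 macrophage markers rose, with a summed level of 2.53 to 12.1 FPKM in control and 891 to 1501 FPKM in ILK-K5 libraries, and their part in the keratin differences below was not tested. In bulk samples such as these, fewer cells of a type and less RNA per cell cannot be told apart.

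Levels are given in FPKM, which are per length and can be set side by side between genes. Differences are log2 fold changes, ILK-K5 over control, on the scale of log2(normalised count + 1), with a standard error (SE) and an adjusted p from limma over 16368 genes with a mean of at least 10 normalised counts. A gene was called at an adjusted p of at most 0.05. Of the 49 members, 24 passed the filter and 25 did not, the latter with at most 29 reads and 0.826 FPKM in any library. Krt42 was called higher and no member was called lower, in a fit that called 3.53% of all genes tested (2.93% higher and 0.599% lower). At an unadjusted p under 0.05, 13 members stood out, 7 higher and 6 lower, where 12.3% of all genes did. Every ILK-K5 library lay above every control library for 6 tested members (10.9% of all genes tested) and below for 6 (6.95% of all genes). The median log2 fold change of the tested members was -0.25, with 9 above and 15 below 0, beside 0.01 over all genes. Krt42, Krt73 and Krt71 passed the filter through ILK-K5 only, with control means of 9.04, 5.51 and 3.14 normalised counts. Krt32 and Krt78 passed it through control only, with ILK-K5 means of 2.69 and 9.96. The filter thus favoured the direction in which these members differ. All these counts cover members that passed the filter only and describe them, without testing the family.

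**Figure D1:**
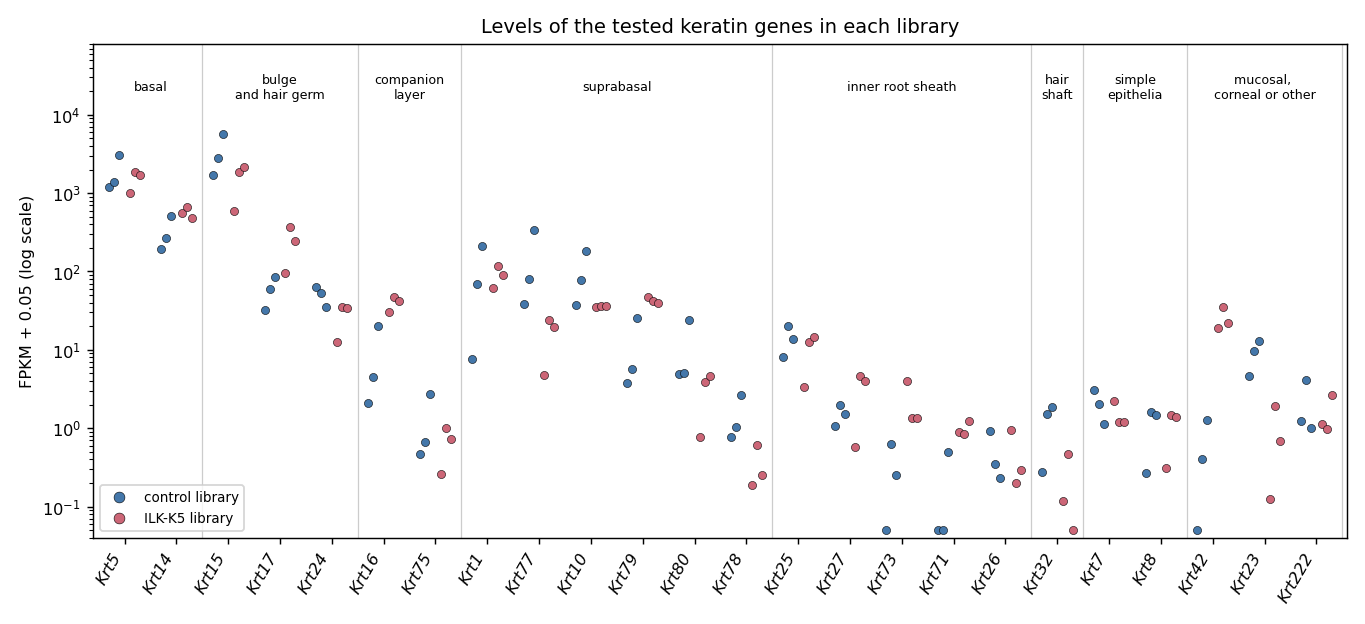
FPKM (vertical log axis, with 0.05 added to every value so that 0 can be drawn) of the 24 tested keratin genes in each of 3 control (blue) and 3 ILK-K5 (red) libraries, drawn from replicate 1 to 3 within a group and ordered by compartment. Krt15 and Krt5 stand highest in both genotypes, and the controls of Krt42 lie at or below 1.22 FPKM while its ILK-K5 libraries lie at 19.1 FPKM or above.

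The most abundant keratins were those of the basal layer and the bulge. Krt15, a type I keratin used as a bulge SC marker, stood at 1683, 2772 and 5653 FPKM in the controls and 585, 1851 and 2186 FPKM in ILK-K5. The groups overlapped, since control library 1 lay below ILK-K5 libraries 2 and 3 (log2 fold change -1.16, SE 0.62, adjusted p = 0.552). Krt5, the type II partner in the basal layer, stood at 1184, 1404 and 3035 FPKM in control and 1006, 1854 and 1708 FPKM in ILK-K5. Its values interleaved, with a log2 fold change of -0.22 (SE 0.48, adjusted p = 0.933). Krt14, the basal type I chain, stood at 193, 269 and 517 FPKM in control and 559, 663 and 481 FPKM in ILK-K5. ILK-K5 libraries 1 and 2 lay above all controls and library 3 just below control library 3 (log2 fold change 0.91, SE 0.39, adjusted p = 0.366).

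Set against each other within a library, these 3 genes separated the genotypes where their levels did not. The ratio of Krt14 to Krt15 was 0.115, 0.0970 and 0.0915 in the controls and 0.956, 0.358 and 0.220 in ILK-K5, the lowest of which exceeded the highest control. The ratio of Krt14 to Krt5 was 0.163, 0.192 and 0.170 in control and 0.556, 0.357 and 0.281 in ILK-K5. That of Krt15 to Krt5 was 1.42, 1.97 and 1.86 in control and 0.582, 0.998 and 1.28 in ILK-K5, so that Krt15 outweighed Krt5 in all controls and in ILK-K5 library 3 only. A ratio within a library does not change with the scaling of that library, but it can change with the mix of cells in it. Suprabasal keratins held 7.72% of keratin FPKM in control library 3, against 2.85 and 4.93% in control libraries 1 and 2. Whether such a difference enters the ratios was not tested. With 3 against 3 libraries an exact two-sided permutation test cannot give a p below 0.1, so the ratios, which were chosen with earlier results of these data known, are given as values only.

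As shares of the summed keratin FPKM, Krt15 made up 51.4, 57.2 and 55.6% in the controls and 23.7, 36.2 and 44.3% in ILK-K5, with no overlap. Krt14 made up 5.89, 5.55 and 5.09% in control and 22.6, 13.0 and 9.73% in ILK-K5, again without overlap, while Krt5 held 29.0 to 36.2% in control and 34.6 to 40.7% in ILK-K5. Type I over type II FPKM was 1.63, 2.08 and 1.79 in control and 1.19, 1.496 and 1.64 in ILK-K5, and here the groups overlapped. With Krt6a and Krt6b counted among the type II chains it was 1.54, 1.997 and 1.73 in control and 0.956, 1.34 and 1.47 in ILK-K5, without overlap. Both added genes were themselves called higher in ILK-K5 (log2 fold changes 1.49 and 1.40), so this separation follows in part from adding them.

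**Figure D2:**
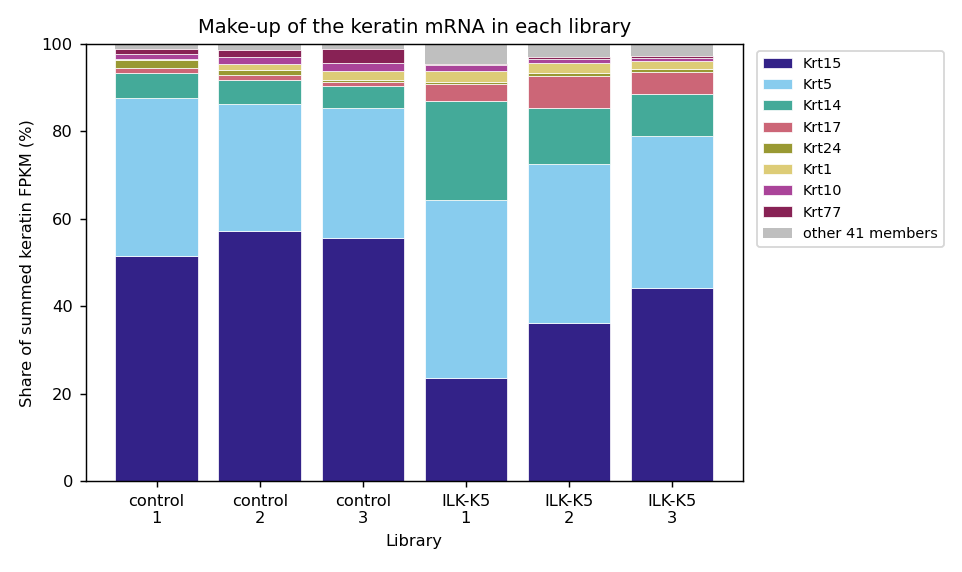
Share of each keratin in the summed FPKM of the 49 keratin genes (vertical axis, %, from 0 to 100) in the 3 control and the 3 ILK-K5 libraries, as stacked bars, with 8 genes shown by name and the other 41 in grey. The Krt15 segment spans 51.4 to 57.2% in controls and 23.7 to 44.3% in ILK-K5, and the Krt14 segment 5.09 to 5.89% and 9.73 to 22.6%.

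The other members of the bulge and hair germ list were Krt17, Krt24 and Krt19. Krt17, a keratin of the outer root sheath and hair germ, stood at 32.5, 59.4 and 84.9 FPKM in control and 96.7, 373 and 243 FPKM in ILK-K5. All ILK-K5 libraries lay above all controls, ILK-K5 library 1 by the smallest margin (log2 fold change 1.91, SE 0.52, adjusted p = 0.0930), and leaving out 1 library at a time gave a call only without ILK-K5 library 1 (2.46, adjusted p = 0.0258). The other 5 fits gave adjusted p-values of 0.0670 to 0.323, with a log2 fold change down to 1.48 without ILK-K5 library 2. Krt24 stood at 64.0, 52.6 and 35.4 FPKM in control and 12.7, 35.1 and 34.6 FPKM in ILK-K5. The groups did not overlap, but control library 3 and ILK-K5 library 2 differed by less than 1 FPKM (log2 fold change -0.98, SE 0.43, adjusted p = 0.391). Krt19, another bulge marker, was at 0 FPKM in control libraries 1 and 2 and did not pass 0.321 FPKM or 8 reads in any library, and it was not tested. The list thus had 3 tested members of 4, 0 called by limma and 1, Krt17, by DESeq2, with 1 higher and 1 lower at an unadjusted p under 0.05 and a median log2 fold change of -0.98.

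The member with the largest difference, and the one that was called, was Krt42, a type I keratin whose human counterpart is a pseudogene. It was at 0, 0.354 and 1.22 FPKM in the controls (0, 4 and 29 reads) and at 19.1, 35.3 and 22.0 FPKM in ILK-K5 (288, 787 and 388 reads). The lowest ILK-K5 value was over 10 times the highest control value, and control library 1 had no read, which allows up to 3. Krt42 rose by a log2 fold change of 6.30 (SE 0.96, adjusted p = 0.00693), and its rank by mean FPKM among the 49 members moved from 23 in control to 10 in ILK-K5. The call held in each of the 6 fits without 1 library, with log2 fold changes from 5.08 without control library 1 to 7.31 without control library 3, and adjusted p-values from 0.00128 to 0.0485. Because controls sit near 0, the size depends on the value added before the log: with 0.1 in place of 1 it was 7.49 and the adjusted p 0.0533.

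Krt42 (chr11:100262882-100269871, minus strand) is the outermost keratin gene of the type I cluster, and Krt17, Krt16 and Krt14 are the 3 keratin genes next to it, in that order. Along this end of the cluster the log2 fold changes were 6.30 for Krt42, 1.91 for Krt17, 2.78 for Krt16 and 0.91 for Krt14, all above 0. Of these, limma called Krt42 only (adjusted p = 0.0930, 0.0685 and 0.366 for Krt17, Krt16 and Krt14), and the groups of Krt14 overlapped. Whether position in the cluster bears on the differences was not tested. Krt15, the next tested member, was at -1.16, with Krt19 and Krt9, both untested, between it and Krt14. Of the 9 tested members of chromosome 11 beyond Krt14, Krt27 was the one above 0, at 0.58 (SE 0.80, adjusted p = 0.890).

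**Figure D3:**
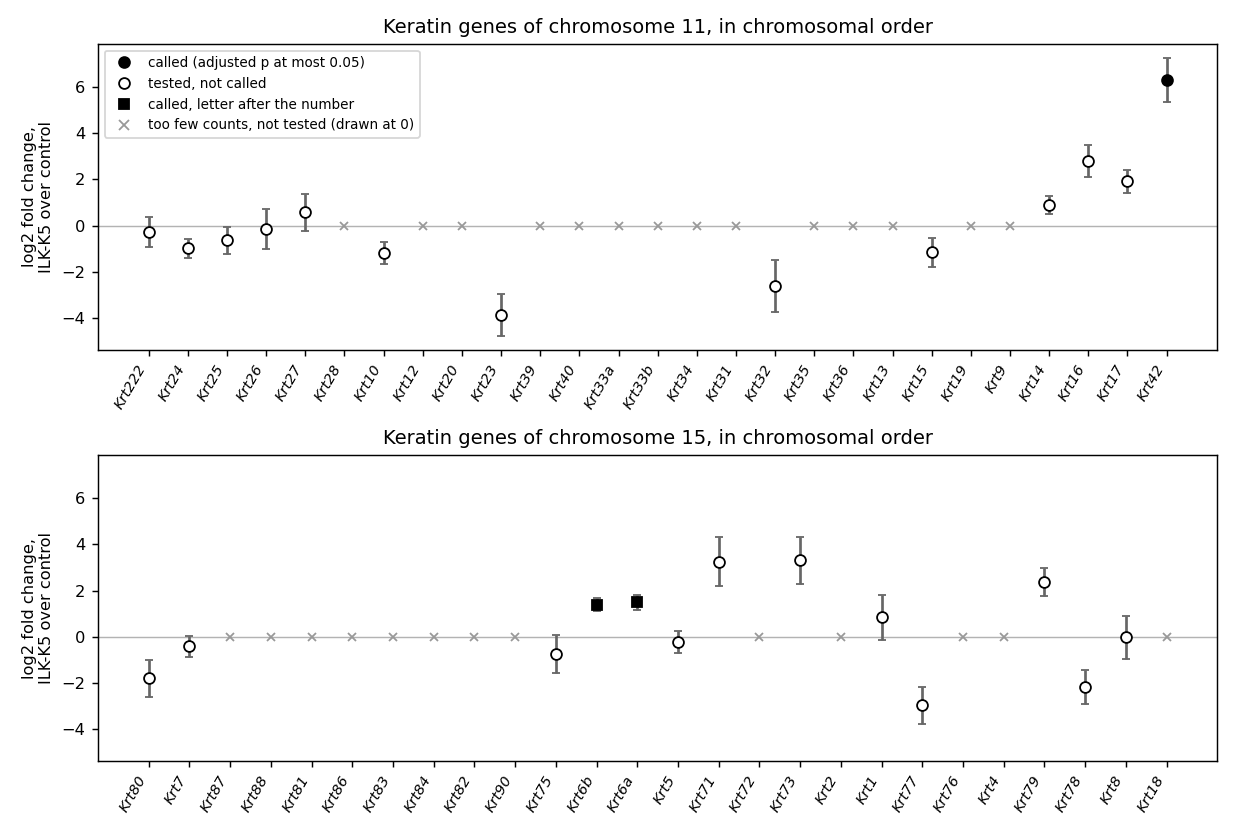
Log2 fold change, ILK-K5 over control, of keratin genes in their order along chromosome 11 (upper panel) and chromosome 15 (lower panel), including the 4 with a letter after the number. Bars are standard errors from limma, filled symbols are called genes, open circles tested genes not called, and crosses at 0 genes that were not tested, and the called genes are Krt42 at the right end of chromosome 11 and the neighbours Krt6b and Krt6a on chromosome 15.

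Of the companion layer list, Krt16 stood at 2.02, 4.48 and 19.9 FPKM in control and 30.7, 47.1 and 42.5 FPKM in ILK-K5. Krt16 is a type I partner of the Krt6 chains and is induced when epidermis is wounded. The groups did not overlap, but control library 3 was several times higher than the other controls, and Krt16 was not called (log2 fold change 2.78, SE 0.69, adjusted p = 0.0685). Without control library 3 it was called (3.68, adjusted p = 0.00214), whereas without control library 1 the log2 fold change was 2.05 (adjusted p = 0.107) and without any of the other 4 libraries the adjusted p was 0.134 to 0.288. Gm11597, which shares 25.2% of the 50-base windows of Krt16, moved with it, at 1, 9 and 24 reads in control and 50, 120 and 98 reads in ILK-K5, so that some of its reads may belong to Krt16 or the reverse. Krt75, a type II keratin of the companion layer, was low, at 0.424, 0.621 and 2.69 FPKM in control and 0.214, 0.944 and 0.673 FPKM in ILK-K5 (log2 fold change -0.75, SE 0.82, adjusted p = 0.844).

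The type II partners of Krt16 and Krt17, Krt6a and Krt6b, carry a letter and so are not among the 49. They rose, and their values are given beside those of their partners. Krt6a stood at 62.4, 58.3 and 114 FPKM in control and 246, 206 and 184 FPKM in ILK-K5 (log2 fold change 1.49, SE 0.32, adjusted p = 0.0356). Krt6b stood at 13.7, 9.74 and 15.6 FPKM in control and 32.4, 34.4 and 34.7 FPKM in ILK-K5 (log2 fold change 1.40, SE 0.27, adjusted p = 0.0238). Neither pair of groups overlapped, and the ILK-K5 values of Krt6b lay within 3 FPKM of each other. Krt6a lost its call without any library other than control library 3 (adjusted p between 0.0876 and 0.145), and Krt6b without control library 2 or any ILK-K5 library (0.0726 to 0.132). The quasi-likelihood test of edgeR called Krt6b and not Krt6a (adjusted p = 0.0318 and 0.0671). The lettered hair keratins Krt33a and Krt33b had at most 1 read in any library.

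The suprabasal list did not move in 1 direction. Of its 8 members 6 were tested, 2 with a log2 fold change above 0 and 4 below, with a median of -1.49 and 0 called by limma, although 1 was higher and 3 were lower at an unadjusted p under 0.05, and DESeq2 called 1 higher and 1 lower. Krt1 and Krt10 form the filaments of differentiating epidermis. Krt10 stood at 37.5, 77.5 and 185 FPKM in control and 35.1, 35.9 and 36.3 FPKM in ILK-K5, so that the ILK-K5 libraries were nearly equal and the controls spread up to control library 3 (log2 fold change -1.18, SE 0.49, adjusted p = 0.354). Without control library 1, the lowest of the controls, it was called (-1.74, adjusted p = 0.0399), but without control library 3 the log2 fold change was -0.59 (adjusted p = 0.424), and without any of the other 4 libraries the adjusted p was 0.488 to 0.687. Krt1 was at 7.49, 68.2 and 211 FPKM in control and 60.8, 117 and 90.6 FPKM in ILK-K5. The controls of Krt1 spanned the ILK-K5 range on both sides (log2 fold change 0.86, SE 0.98, adjusted p = 0.853), and the sign turned to -0.47 without control library 1. The ratio of Krt10 to Krt1 was 5.005, 1.14 and 0.875 in control and 0.578, 0.307 and 0.401 in ILK-K5, lower in all ILK-K5 libraries.

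Krt77, a type II keratin and the neighbour of Krt1 on chromosome 15, stood at 38.2, 80.8 and 337 FPKM in control and 4.70, 23.8 and 19.6 FPKM in ILK-K5. Every ILK-K5 library lay below every control (log2 fold change -2.96, SE 0.81, adjusted p = 0.0983). It was called in 1 of the 6 fits without 1 library, that without control library 1 (-3.66, adjusted p = 0.0355). The log2 fold change was -2.09 without control library 3 (adjusted p = 0.155) and -2.23 without ILK-K5 library 1 (adjusted p = 0.253), and the adjusted p reached 0.286 without control library 2. Krt79, by contrast, stood at 3.77, 5.65 and 25.7 FPKM in control and 47.6, 41.7 and 39.5 FPKM in ILK-K5. Krt79 marks cells that line the hair canal above the bulge. It was higher in all ILK-K5 libraries but not called (log2 fold change 2.38, SE 0.61, adjusted p = 0.0740), and it was called without control library 3 (3.20, adjusted p = 9.55e-04). Without any other library it was not called, with an adjusted p of 0.148 to 0.314 and a log2 fold change of 1.82 without control library 1.

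Lower down in the suprabasal list, Krt80 stood at 4.85, 5.01 and 23.9 FPKM in control and 0.724, 3.88 and 4.62 FPKM in ILK-K5 (log2 fold change -1.79, SE 0.81, adjusted p = 0.422). Krt78 stood at 0.720, 0.999 and 2.64 FPKM in control and 0.136, 0.553 and 0.204 FPKM in ILK-K5 (log2 fold change -2.17, SE 0.73, adjusted p = 0.203). Both were lower in all ILK-K5 libraries. Krt2, a keratin of late differentiation, was too low to be tested, with 10, 8 and 29 reads in control and 0, 3 and 0 in ILK-K5. Krt9, the keratin of palm and sole epidermis, had at most 12 reads. Among 7 tested markers of differentiated epidermis that are not keratins, Lor and Dmkn fell (log2 fold changes -3.91 and -1.25), none rose, and the summed level was 334 to 963 FPKM in control and 313 to 515 FPKM in ILK-K5, beside which the suprabasal keratins can be read.

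The summed level of the suprabasal keratins was 93.4, 239 and 785 FPKM in control and 149, 223 and 191 FPKM in ILK-K5. Control library 3 thus held the most suprabasal keratin mRNA and control library 1 the least. Control library 3 was also the highest control for Krt15, Krt5, Krt14, Krt17, Krt16, Krt79, Krt80 and Krt77, so that Krt17, Krt16 and Krt79, higher in all ILK-K5 libraries, had their nearest control there.

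Inner root sheath keratins were low, with 5 of 7 members tested and 0 called by limma (2 higher at an unadjusted p under 0.05, and 1 called by DESeq2), 3 above 0 and 2 below, and a median log2 fold change of 0.58. That median rests on few low genes, at 1.53 without ILK-K5 library 1, 0.15 without ILK-K5 library 3 and -0.63 with a filter at 50 normalised counts, which leaves 1 gene, Krt25. Krt25, a type I chain and the most abundant of the list, stood at 8.16, 20.1 and 13.6 FPKM in control and 3.29, 12.5 and 14.4 FPKM in ILK-K5 (log2 fold change -0.63, SE 0.57, adjusted p = 0.800). Krt27 stood at 1.02, 1.91 and 1.49 FPKM in control and 0.527, 4.59 and 3.93 FPKM in ILK-K5, and both Krt25 and Krt27 were lowest in ILK-K5 library 1. The type II chains Krt71 and Krt73 were nearly silent in controls. Krt73 had 0, 8 and 6 reads in control and 73, 36 and 28 in ILK-K5 (0, 0.576 and 0.206 FPKM against 3.94, 1.32 and 1.29; log2 fold change 3.31, SE 0.999, adjusted p = 0.144). Krt71 had 0, 0 and 13 reads in control and 16, 22 and 26 in ILK-K5 (0, 0 and 0.443 FPKM against 0.855, 0.796 and 1.19; log2 fold change 3.26, SE 1.07, adjusted p = 0.191). Neither pair of groups overlapped, although at these depths single reads weigh on the values, and Krt71 was called without control library 3 (4.38, adjusted p = 0.0404) and in none of the other 5 fits without 1 library (adjusted p of 0.289 to 0.585, with a log2 fold change of 2.69 without control library 1 or 2). Krt26 had 7 to 32 reads and a log2 fold change of -0.15, and Krt28 and Krt72, untested, had at most 13 and 5 reads.

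Hair shaft keratins were hardly detected. Of 13 members, 7 had at most 3 reads in every library, and Krt86 had none in any, which allows up to 3 reads per library. Krt32, a cuticle keratin and the member tested, had 4, 16 and 42 reads in control and 1, 9 and 0 in ILK-K5 (0.230, 1.45 and 1.82 FPKM against 0.0678, 0.414 and 0; log2 fold change -2.61, SE 1.12, adjusted p = 0.374). The groups overlapped through control library 1. Krt35, a keratin of the early hair shaft, had 17, 10 and 8 reads in control and 4, 1 and 2 in ILK-K5 (0.702, 0.651 and 0.248 FPKM against 0.195, 0.0330 and 0.0834), lower in all ILK-K5 libraries but not tested. Krt87 had 2, 6 and 0 reads in control and 0, 0 and 4 in ILK-K5, and the other 10 members had at most 5. Of 57 keratin-associated protein genes, which build the matrix of the hair shaft, 1 was tested, Krtap17-1 (log2 fold change 1.38, SE 0.62, adjusted p = 0.416), and 43 had at most 3 reads in every library.

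Keratins of simple epithelia were also low. Krt7 stood at 3.03, 2.01 and 1.10 FPKM in control and 2.17, 1.14 and 1.15 FPKM in ILK-K5 (log2 fold change -0.41, SE 0.46, adjusted p = 0.853). Krt8, the type II chain of the first embryonic epithelia and of Merkel cells, stood at 0.219, 1.55 and 1.44 FPKM in control and 0.259, 1.45 and 1.33 FPKM in ILK-K5. Replicate 1 was the low library of Krt8 in both genotypes, and the log2 fold change was -0.01 with an SE of 0.93, so that changes of nearly 2 units either way remained within 2 SE. Krt18, the usual partner of Krt8, had at most 2 reads and Krt20 at most 4, while none of 3 Merkel cell transcription factors passed the filter.

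The remaining 9 members, of mucosal, corneal or other epithelia, held Krt42 and Krt23. Krt23 (chr11:99477974-99493137, minus strand), a type I keratin, stood at 4.55, 9.76 and 12.9 FPKM in control and 0.0746, 1.87 and 0.638 FPKM in ILK-K5, or 72, 98 and 272 reads against 1, 37 and 10. All ILK-K5 libraries lay below all controls, with the most negative log2 fold change of the tested members, and the adjusted p was just above 0.05 (log2 fold change -3.86, SE 0.90, adjusted p = 0.0529). Without ILK-K5 library 2 it was called (-4.74, adjusted p = 0.0287), but without ILK-K5 library 1 the log2 fold change was -2.85 (adjusted p = 0.0715), and the adjusted p was 0.0540 to 0.230 without any of the other 4 libraries. Krt222, an atypical type I member, stood at 1.20, 4.07 and 0.972 FPKM in control and 1.10, 0.937 and 2.58 FPKM in ILK-K5 (log2 fold change -0.28, SE 0.64, adjusted p = 0.938). The other 6 members were not tested: Krt4, a keratin of mucosa, had at most 6 reads, Krt13, its mucosal partner, at most 7, Krt12, the keratin of the cornea, at most 6, Krt76 at most 14, Krt88 at most 6 and Krt90 at most 21.

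To compare keratins per amount of basal keratin mRNA, FPKM were divided by the sum of Krt5 and Krt14 in the same library. Per 1000 FPKM of that sum, Krt16 stood at 1.47, 2.68 and 5.61 in control and 19.6, 18.7 and 19.4 in ILK-K5. Krt79 stood at 2.74, 3.38 and 7.23 in control and 30.4, 16.6 and 18.1 in ILK-K5, and Krt77 at 27.8, 48.3 and 94.8 in control and 3.003, 9.45 and 8.94 in ILK-K5. The highest control and the lowest ILK-K5 library of Krt16 lay further apart on this scale than in FPKM, and Krt15 no longer overlapped, at 1223, 1657 and 1591 in control and 374, 735 and 999 in ILK-K5. When all genes were scaled this way, limma called Krt42, Krt16 and Krt79 higher and Krt77 and Krt23 lower, with 2.65% of all genes called, and Krt6a and Krt6b were no longer called (adjusted p = 0.292 and 0.298), with log2 fold changes of 1.51 and 1.41 that were nearly those before scaling. This scaling was added after the data had been seen, and Krt14, in its divisor, itself made up a larger share of keratin mRNA in every ILK-K5 library.

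**Figure D4:**
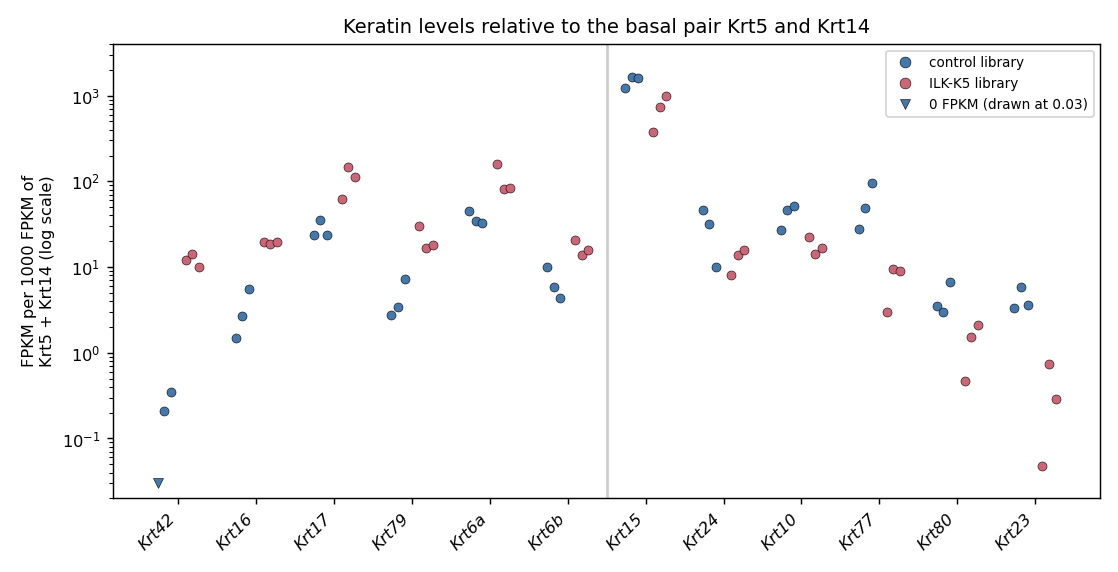
FPKM of 12 keratin genes per 1000 FPKM of Krt5 plus Krt14 (vertical log axis) in each of 3 control (blue) and 3 ILK-K5 (red) libraries, from replicate 1 to 3, with a 0 drawn as a triangle at 0.03. Genes left of the line were higher and genes right of it lower in every ILK-K5 library by FPKM, except Krt15, whose groups overlapped in FPKM, and on this scale Krt24 overlaps and Krt16 lies at 18.7 to 19.6 in all ILK-K5 libraries.

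Count tests on the reads recovered from the table bracketed these calls. The quasi-likelihood test of edgeR called Krt42 (log2 fold change 5.47, adjusted p = 0.0118) and no other member, with 3.11% of all genes called. DESeq2 called Krt42, Krt17, Krt16, Krt79 and Krt73 higher and Krt23 and Krt77 lower, with 6.44% of all genes called. Replicates 2 and 3 of both genotypes share a number in their descriptions that replicate 1 does not, and what it stands for is not stated. In its in vivo work the paper used littermates as controls, but the labels do not assign libraries to litters. The main fit had no term for litter or for the shared number. With the shared number as a term, limma called Krt42, Krt17, Krt16 and Krt79 higher and Krt23 and Krt77 lower, with 6.92% of all genes called. Within replicates 2 and 3 alone, Krt42 (5.26, adjusted p = 0.00808) and Krt17 (2.08, adjusted p = 0.0251) were called higher and Krt23 lower (-3.28, adjusted p = 0.0348). These were among 475 genes called of the 16368 tested.

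Lists of other genes of the keratin system were read beside the members. Of 10 tested desmosomal and plakin genes, which anchor keratin filaments, limma called 0, with 1 higher and 1 lower at an unadjusted p under 0.05, and edgeR and DESeq2 also called 0. Desmoplakin (Dsp), the main anchor at desmosomes, stood at 277, 247 and 336 FPKM in control and 195, 219 and 238 FPKM in ILK-K5, without overlap (log2 fold change -0.39, SE 0.33). Of 13 tested regulators of keratin genes, Cebpb rose, from 0.789, 0.829 and 1.29 to 6.75, 7.15 and 4.45 FPKM (log2 fold change 2.58, SE 0.47, adjusted p = 0.0178). Bulk libraries do not show which cells carried Cebpb. Macrophage markers rose in the same libraries, and their part in this rise was not tested. Dlx3, a homeobox factor of the hair matrix, fell, from 11.04, 4.90 and 8.56 to 1.12, 2.40 and 1.95 FPKM (log2 fold change -2.13, SE 0.45, adjusted p = 0.0333). Trp63, the p63 factor that maintains the basal programme, was at 119, 156 and 127 FPKM in control and 98.8, 117 and 136 FPKM in ILK-K5 (log2 fold change -0.19, SE 0.29).

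Of 7 other intermediate filament genes tested, Vim rose, from 0.626, 0.986 and 2.01 to 269, 117 and 87.3 FPKM (log2 fold change 6.99, SE 0.51, adjusted p = 2.55e-04). Vimentin is the filament protein of mesenchymal and blood cells, and like the macrophage markers given above it rose in all ILK-K5 libraries. Within ILK-K5, Vim was highest in library 1, where the summed macrophage level was lowest (891, 1501 and 1034.5 FPKM). Single macrophage markers differed in their order. Lyz2 was lowest in library 1 (151, 405 and 280 FPKM), whereas Csf1r was highest there (57.7, 50.2 and 37.6 FPKM). The part of macrophages in the Vim level was not tested. Other cell types were checked too. Limma called 1 of 4 T cell, 1 of 3 fibroblast, 0 of 4 melanocyte and 0 of 1 endothelial markers tested. DESeq2 called 2 T cell, 1 fibroblast, 2 melanocyte and 0 endothelial markers higher. Of 8 hair matrix genes 1, Dlx3, fell. Of 5 sebaceous gland genes limma called Elovl3 higher, at 0 reads in all controls, and DESeq2 called 2 higher. The summed level of the list was 10.9 to 25.6 FPKM in control and 40.7 to 50.5 FPKM in ILK-K5. Much of the ILK-K5 sum was Fabp5, which was not called by limma (0.999, 5.55 and 9.07 FPKM in control and 30.1, 32.5 and 23.9 FPKM in ILK-K5). Mgst1 had a log2 fold change of 1.26, and Scd1 and Awat2 lay below 0, at -0.21 and -0.35. The part of these cell types in the keratin values was not tested.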

How the data were processed

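CD34+/α6 integrin-high bulge SC RNA of 3 control and 3 ILK-K5 libraries (groups from the labels) had been amplified, sequenced as read pairs, freed of ribosomal reads and aligned to GRCm38 (the submitters' processing notes name TopHat2 2.0.14, Bowtie2 2.2.4 and DESeq2 1.6.3). The authors deposited a signal table, in which the reads of each gene stand divided by the library's size factor (normalised counts), and an FPKM table. For all 34213 genes with a value, FPKM equalled the normalised count times a constant. All values (100%) were whole multiples of 1 read, within 0.0001 reads, from which reads were recovered. Tables of the authors' own fold changes and p-values were not used. Symbols (97.3% of genes), exons and sequences came from GENCODE M21.

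Genotypes were compared in limma 3.58.1 (R 4.3.3, trend, Benjamini-Hochberg, two-sided) on log2(normalised count + 1) for genes with a mean of at least 10. Alternatives numbered 16, and 2 were added after seeing the data. Named were called genes, members whose groups did not overlap and the 3 most abundant of each compartment. Keratins with a letter, Ilk and Gm11597 stand outside that rule, and remaining members are named only to account for each by its reads or log2 fold change. Members, compartments and lists were chosen with earlier results of these data known. Scripts were tested on simulated data. Type II sequences are not reported here. Read numbers limit precision, and floors cover counting error only.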

Additional observations from a re-analysis of the deposited data

How the results depend on the processing

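Krt42 was called higher in 17 of 18 alternatives, with log2 fold changes of 5.08 to 7.49, the exception being a pseudocount of 0.1 (adjusted p = 0.0533), under which 0 members were called higher. Against 1 member called higher and 0 lower, the counts were 3 and 2 without a filter on low values (Krt16 and Krt79 added higher, Krt23 and Krt77 lower), 5 and 2 with DESeq2, 4 and 2 with the number shared by replicates 2 and 3 as a term, 2 and 1 in replicates 2 and 3 only, and 3 and 2 when scaled to Krt5 plus Krt14. A pseudocount of 5 and quantile normalization each called 1 member lower, Krt23. With a replicate block the counts were 4 and 3. Same-numbered libraries correlated at 0.529, 0.0198 and 0.307 in their deviations from the group means, and control 2 correlated better with ILK-K5 3 (0.0738), so that the replicate numbers were not taken as pairs. The 5 control and ILK-K5 pairs with the same number in their descriptions (replicate 1, or replicates 2 and 3) correlated at 0.0198 to 0.529, and the 4 other pairs at -0.553 to -0.060. All genes called numbered 577, and 1052 with DESeq2 (772 higher and 280 lower), 1117 with the replicate block and 1132 with the number term. Without the filter 610 of 34213 genes were called, and 475 of 16368 in replicates 2 and 3 alone. Called genes numbered 433 when scaled to Krt5 plus Krt14, 424 and 661 with pseudocounts of 0.1 and 5, and 560 with quantile normalization. Without 1 library each, members called higher ranged from 1 to 4, members called lower from 0 to 2 and all genes called from 254 to 656.

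The median log2 fold change of the inner root sheath list, 0.58, was 1.05 with edgeR, 1.02 with DESeq2, 1.30 in replicates 2 and 3 only and -0.63 with the filter raised to 50 normalized counts, and that of the companion layer, 1.015, was 2.78 with the latter.

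Signs turned for 7 members, none of them called in any alternative. The log2 fold change of Krt8, -0.01, was 0.0033 with a pseudocount of 0.1, 0.0099 scaled to Krt5 plus Krt14, 0.43 without control 2, 0.38 without control 3 and 0.72 without ILK-K5 1, from a lowest value of -0.84 without control 1. That of Krt5, -0.22, was 0.15 under quantile normalization, 0.19 without control 3 and 0.054 without ILK-K5 1, and -0.49 without control 1. That of Krt1, 0.86, was -0.11 with edgeR and with DESeq2 and -0.22 in replicates 2 and 3 only, and ranged from -0.47 without control 1 to 1.93 without control 3. Without 1 library each, Krt26 (-0.15) ranged from -0.83 to 0.44 (0.35 without ILK-K5 2 and 0.042 without ILK-K5 3), Krt222 (-0.28) from -0.72 to 0.35, Krt75 (-0.75) from -1.27 to 0.021 and Krt25 (-0.63) from -1.02 to 0.035. The cause of these turns was not tested. Depth limits the 25 untested members, none of which passed 29 reads in any library.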
